A study of Bos taurus with 24 samples.

Results

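The 5 metabolic host gene miRNAs, bta-miR-33a, bta-miR-33b, bta-miR-103, bta-miR-107 and bta-miR-378, were examined in small RNA libraries of cow mammary gland. They were chosen by name, because their genes lie within genes of lipid and energy metabolism, and with earlier results of these data known. All 5 had a row among the 796 miRNAs of the deposited tables. Each was counted in all 22 libraries and passed the filter on low counts in both breeds. Mammary gland biopsies had been taken from 5 HOLS (Holstein) and 6 MONT (Montbéliarde) cows in mid-lactation, from each cow before feed restriction with free intake (CONT, day 0) and at its end (REST, day 6). The feed allowance during restriction is given as 60% of the net energy for lactation by the labels and as a lower share by the study's methods. Every cow was thus its own control, no cows were left unrestricted over the same days, and both biopsies of a cow came from alternate sides of the rear udder, so that side and time cannot be told apart from restriction. The question was whether these miRNAs respond to a shortage of energy and whether they do so alike in both breeds.

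A miRNA that lies in an intron can be transcribed together with its host gene, and these hosts set much of the lipid and energy supply of a cell. miR-33a and miR-33b sit in the sterol regulatory element binding factor genes, whose proteins switch on cholesterol and fatty acid synthesis, and are known to repress the cholesterol exporter ABCA1 and genes of fatty acid oxidation. miR-103 and miR-107 sit in pantothenate kinase genes, which start the synthesis of coenzyme A, and are known as regulators of insulin signalling. miR-378 sits in PPARGC1B, a coactivator of mitochondrial and fatty acid genes, and is known for effects on adipocytes and mitochondrial metabolism. In the lactating gland the epithelium makes milk fat, so that lipid synthesis is a main use of energy there.

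In the RefSeq gene table of assembly ARS-UCD2.0, which is not the build the authors used, the span of each miRNA gene was compared with the spans of other genes. MIR33A lay within SREBF2 and MIR33B within SREBF1. miR-103 has 2 genes, MIR103-1 within PANK3 and MIR103-2 within PANK2, and MIR107 lay within PANK1. miR-378 also has 2 genes, MIR378-1 within PPARGC1B and MIR378-2 within CALCR, the calcitonin receptor gene. The counts of miR-103 and of miR-378 therefore cannot be assigned to one host. The tables held 3 further miRNAs with these family names, miR-378b, miR-378c and miR-378d, of which MIR378C lay within ZNF521, MIR378D within MSI2 and MIR378B within no other gene.

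The total of miRNA counts per library lay between 6087865 and 18913916. Its median was higher in REST than in CONT, at 14376578 against 10786816 in HOLS and 10756329.5 against 9107961 in MONT. All 9 epithelial markers with a row of 10 listed (such as miR-200a and miR-141) were counted in every library, at a median of 4.57% of all counts in HOLS CONT and 2.70% in MONT REST. The 5 striated muscle markers with a row of 6 listed made up a median of 0.0104% at most in any group, with miR-208b at 0 in HOLS REST. MONT cow 9615 stood apart: when the deviations of its 2 libraries from their group means were compared across miRNAs, r was -0.33, against values between 0.07 and 0.76 in the other 10 cows. Fits are therefore also given without it where calls of the 5 miRNAs changed. Correlations over the MONT libraries include both of its libraries and were not computed without them.

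miR-103 was the most abundant of the 5, ranked 42 of 754 miRNAs detected in HOLS and 47 of 759 in MONT by mean normalized count. miR-378 followed at rank 70 and 71, miR-107 at 90 and 93, miR-33b at 133 and 123, and miR-33a at 201 in both breeds. Together they made up a median of 0.276% of the counts of a library in HOLS and 0.227% in MONT. Normalized counts are counts divided by a size factor of the library, estimated over all 22 libraries. Mature miRNAs have nearly the same length, so no scaling by length was applied, but ligation of adapters favours some sequences and a ratio of counts between miRNAs is not a ratio of molecules. The order miR-103, miR-378, miR-107, miR-33b, miR-33a held in each of the 22 libraries. The 5 ranges did not overlap in HOLS, and in MONT 2 pairs of neighbours did. The lowest miR-378 value there was 2754 and the highest miR-107 value 2973, and the lowest miR-107 value was 1614 and the highest miR-33b value 1745.

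**Figure D1:**
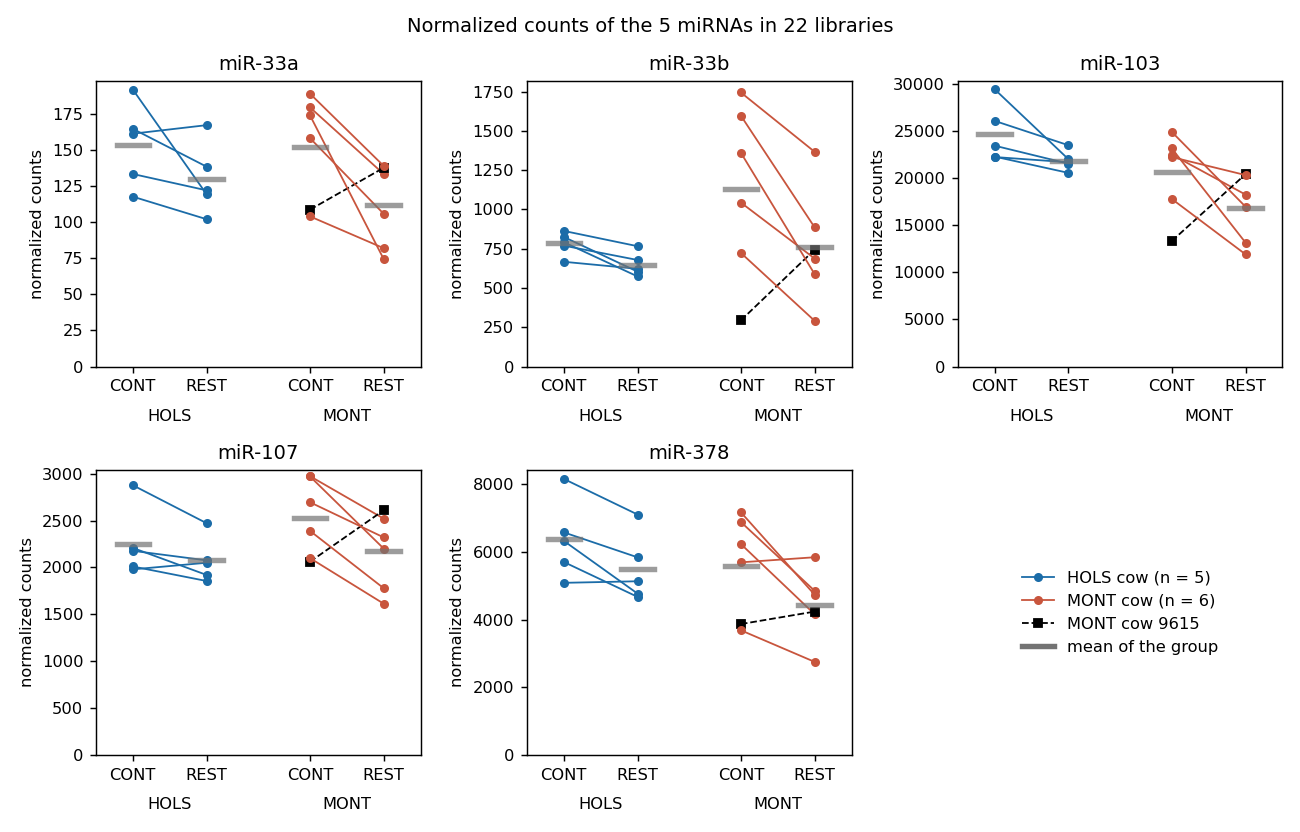
Normalized counts of the 5 miRNAs (y axis, from 0) in CONT and REST libraries of 5 HOLS and 6 MONT cows. Each line joins both libraries of a cow, grey bars are group means and the dashed black line is MONT cow 9615, whose levels went up where those of most other cows went down.

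miR-33a, the scarcest member, had 77 to 249 counts in a library. Its normalized counts in HOLS cows 1165, 8200, 9195, 1155 and 2182 were 161, 192, 165, 133 and 118 in CONT and 167, 119, 138, 122 and 102 in REST. The level was lower in REST in 4 of the 5 cows, and the ranges of both periods overlapped. In the 6 MONT cows the lowest, median and highest values were 104, 166 and 189 in CONT and 74.5, 119.6 and 139 in REST, lower in 5 of the 6 cows and again with overlap. With edgeR's quasi-likelihood test, the log2 fold change of REST against CONT was -0.27 with an SE of 0.17 in HOLS (Benjamini-Hochberg adjusted p = 0.346) and -0.47 with an SE of 0.24 in MONT (adjusted p = 0.405).

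miR-33b was several times more abundant than miR-33a, with a mean ratio of raw counts of 5.21 ± 1.23 (SD, 10 libraries) in HOLS and 6.84 ± 2.16 (12 libraries) in MONT. In HOLS cows 1165, 8200, 9195, 1155 and 2182 it stood at 769.9, 825, 792, 667 and 864 in CONT and at 678, 604, 574, 622 and 766 in REST. Every HOLS cow was lower in REST, although the lowest CONT value lay below the highest 2 REST values, so that the ranges overlapped. In edgeR the log2 fold change was -0.28 with an SE of 0.12, equal to 0.825-fold, with an unadjusted p of 0.0444 and an adjusted p of 0.207. The two-sided exact permutation test over the 10 HOLS libraries as unpaired gave p = 0.0317, and the exact paired test gave 0.0625, the smallest that 5 cows allow.

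The spread of miR-33b was wider in MONT. Its lowest, median and highest values were 293, 1203 and 1745 in CONT and 291, 716 and 1367 in REST. Of the 6 cows 5 were lower in REST, with changes between -1.31 and -0.35 on the log2 scale, whereas cow 9615 had 293 in CONT and 744 in REST, a change of 1.34. The edgeR log2 fold change was -0.61 with an SE of 0.41 and an adjusted p of 0.448. The 2 lowest values of miR-33b in any library were that of cow 9615 in CONT and that of cow 1652 in REST.

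miR-103 in HOLS cows 1165, 8200, 9195, 1155 and 2182 had 26045, 23416, 22214, 22259.5 and 29397 normalized counts in CONT and 23462, 21507, 21658, 20531 and 21976 in REST. Its level was lower in REST in each of these 5 cows, most in cow 2182, and a single REST value, that of cow 1165, lay above the lowest CONT values. The edgeR log2 fold change was -0.18 with an SE of 0.10 and an adjusted p of 0.276. The exact permutation p was 0.0556 unpaired, and 0.0625 paired. In MONT the lowest, median and highest values were 13304, 22343 and 24881 in CONT and 11893, 17587 and 20395.5 in REST. The lowest CONT and the highest REST value were both from cow 9615, and the other 5 cows were lower in REST. The MONT fold change was -0.32 on the log2 scale with an SE of 0.19 and an adjusted p in edgeR of 0.437.

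miR-107, the member whose gene lies in PANK1, had 2177, 2208, 1979.8, 2011 and 2876 normalized counts in the same order of HOLS cows in CONT and 2076, 1920.4, 2050.1, 1856 and 2472 in REST. Cow 2182 was the highest in both periods, 4 of the 5 cows were lower in REST, and the periods overlapped widely. Its log2 fold change in HOLS was the smallest of the 5, at -0.12 with an SE of 0.13 (edgeR, adjusted p = 0.636). In MONT its lowest, median and highest values were 2060.25, 2543 and 2973 in CONT and 1614, 2261 and 2609 in REST. All MONT cows but 9615 were lower in REST, and edgeR gave a log2 fold change of -0.24 with an SE of 0.16 and an adjusted p of 0.448.

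miR-378 had 6325, 5086, 6576, 5702 and 8153 normalized counts in HOLS cows 1165, 8200, 9195, 1155 and 2182 in CONT and 4769, 5132, 5839, 4672 and 7102 in REST. Cow 2182 again had the highest level in both periods, and cow 8200, with the lowest CONT level, was the only one not lower in REST. The log2 fold change in HOLS was -0.21 with an SE of 0.16 (edgeR, adjusted p = 0.457). In MONT the lowest, median and highest values were 3687, 5962 and 7169.7 in CONT and 2754, 4487 and 5841 in REST. Here 4 of the 6 cows were lower in REST, and edgeR gave -0.36 with an SE of 0.22 and an adjusted p of 0.437.

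None of the 5 miRNAs passed the threshold of an adjusted p of 0.05 within a breed. Over all miRNAs 9 of the 374 tested in HOLS (2.41%) and 0 of the 349 in MONT (0%) passed it, and in MONT 47 of all miRNAs had an unadjusted p under 0.05 and DESeq2 also called 0. With the cow as a block the HOLS count rose to 61 (16.3%) and still held none of the 5, with the lowest adjusted p at 0.0717 for miR-33b. In DESeq2 with the block, the adjusted p of miR-33b in HOLS was 0.0500007, just above the threshold. All 5 fold changes lay below 0 in both breeds, where 46.5% of all miRNAs tested in HOLS and 51% in MONT did. The median log2 fold change of the 5 was -0.21 in HOLS and -0.36 in MONT, against 0.02 and -0.01 over all miRNAs tested. Scaling by library size alone moved the median of all miRNAs in HOLS to -0.15 and that of the 5 to -0.38, and none passed the threshold under it.

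**Figure D2:**
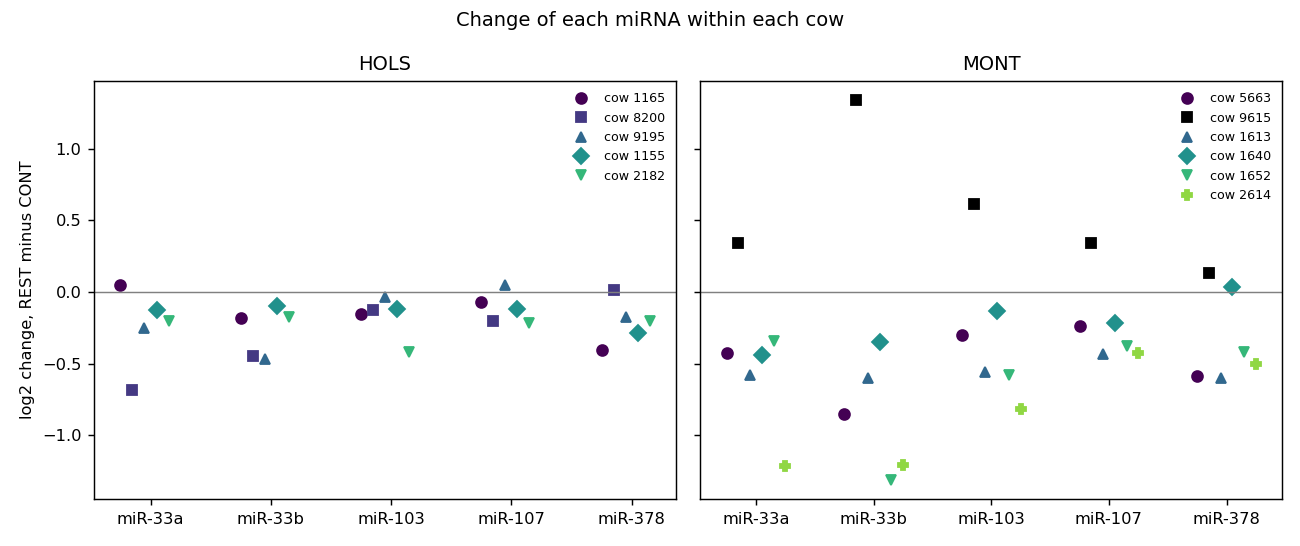
Change within each cow, as log2 normalized counts (pseudocount 1) in REST minus CONT (y axis), for each of the 5 miRNAs in HOLS (left) and MONT (right). Points of HOLS cows lie between -0.68 and 0.05, those of MONT cow 9615 (black squares) all lie above 0 and 24 of the 25 other MONT points lie below 0.

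Counted over all 11 cows, miR-33b and miR-103 were lower in REST in 10, miR-33a and miR-107 in 9 and miR-378 in 8, while 23.6% of the 348 miRNAs tested in both breeds were lower in at least 9 cows. In HOLS miR-33b and miR-103 were lower in every cow, as were 14.4% of the 374 miRNAs tested. Within single cows, at least 4 of the 5 miRNAs were lower in REST in each HOLS cow and in each MONT cow other than 9615, in which all 5 were higher. In cow 9615 the changes were 0.34 for miR-33a, 1.34 for miR-33b, 0.62 for miR-103, 0.34 for miR-107 and 0.13 for miR-378 on the log2 scale.

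Leaving out cow 9615 changed the calls. In the 5 other MONT cows, with the cow as a block, edgeR called all 5 miRNAs lower in REST, where 39.1% of 358 miRNAs were called in either direction and 20.9% lower. The log2 fold changes were then -0.64 for miR-33a (adjusted p = 0.0162), -0.90 for miR-33b (0.00171), -0.51 for miR-103 (0.00700), -0.37 for miR-107 (0.0149) and -0.45 for miR-378 (0.0133). Without the cow as a block the same 5 cows gave -0.81 for miR-33b and an adjusted p of 0.130 in edgeR, and none of the 5 miRNAs was called while 12.8% of all were. This exclusion was made after the values were seen.

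A common change over both breeds gave log2 fold changes of -0.40 ± 0.15 (SE) for miR-33a, -0.47 ± 0.24 for miR-33b, -0.28 ± 0.11 for miR-103, -0.21 ± 0.10 for miR-107 and -0.31 ± 0.13 for miR-378. The adjusted p in edgeR lay between 0.0833 and 0.186, so that none was called, against 9.02% of the 388 miRNAs tested. Of these 35 calls 27 were lower in REST, compared with 25 of 38 under DESeq2 size factors and 34 of 35 under library size alone, which called miR-33a (adjusted p = 0.0439). With the cow as a block miR-33a (adjusted p = 0.0448) and miR-378 (0.0270) fell, against 14.4% called among all miRNAs and 10.1% called lower, and the other 3 had an adjusted p between 0.0712 and 0.0962. DESeq2 with the block called the same 2 of the 5, against 28.1%. Without cow 9615 and with the block, edgeR called all 5, against 44.1%. Without that cow and without the block it called miR-33a, miR-33b and miR-103 but neither miR-107 nor miR-378, against 31.2%.

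No difference between the breeds in the change was detected for any of the 5 miRNAs. The interaction of breed and period, the change in MONT minus that in HOLS, lay between -0.25 for miR-33b (SE 0.48) and -0.06 for miR-107 (SE 0.20), and each had an adjusted p of 0.991 in edgeR. No miRNA was called (0%), 3 of 388 had an unadjusted p under 0.05, and DESeq2 also called 0. With the cow as a block and without cow 9615 the interaction of miR-33b was -0.55 with an SE of 0.18 and an adjusted p of 0.0806.

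**Figure D3:**
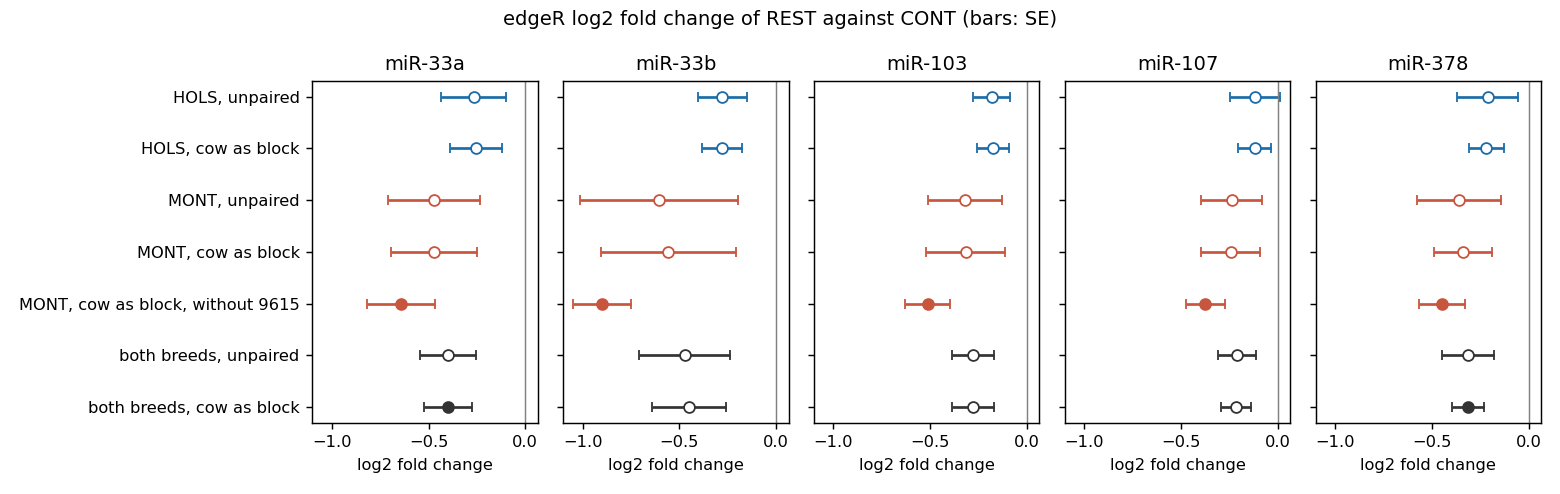
Log2 fold change of REST against CONT from edgeR (x axis) with its SE (bars) for the 5 miRNAs, by breed and design (y axis). Filled points passed the threshold of 0.05 on the adjusted p, and all points lie below 0. In MONT the filled ones are all 5 miRNAs with the cow as a block and without cow 9615. There 39.1% of all miRNAs were called, and without the block none of the 5 was. Cow 9615 was left out after the values were seen. Over both breeds with the cow as a block, miR-33a and miR-378 are filled, where 14.4% of all miRNAs were called.

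Between the breeds, the fitted level of miR-103 was lower and that of miR-107 higher in MONT, and neither difference was called. For miR-103 the log2 fold change of MONT against HOLS was -0.25 with an SE of 0.16 in CONT (edgeR, adjusted p = 0.373) and -0.39 with an SE of 0.14 in REST (0.0806). For miR-107 it was 0.17 with an SE of 0.15 in CONT (edgeR, adjusted p = 0.529) and 0.05 with an SE of 0.15 in REST (0.854). miR-33b was 0.53 higher in MONT in CONT, with an SE of 0.35, and edgeR gave an adjusted p of 0.403. Without cow 9615 it was 0.73 higher, with an SE of 0.21 and an adjusted p in edgeR of 0.146. With all cows kept, the calls over all miRNAs were 2 of 360 (0.556%) in CONT and 58 (15.3%) in REST, and none of the 5 miRNAs was among them. Of the 58 calls in REST 21 were lower in MONT, against 13 of 54 under library size alone, which moved the median of all miRNAs from 0.03 to 0.15 and the fold change of miR-103 to -0.28. Without MONT cow 1640 miR-103 passed the threshold in REST, at -0.45 with an adjusted p in edgeR of 0.0456, against 18.9% of all miRNAs.

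The ratio of miR-103 to miR-107 within a library separated the breeds. In HOLS cows 1165, 8200, 9195, 1155 and 2182 there were 11.96, 10.6, 11.2, 11.1 and 10.2 counts of miR-103 per count of miR-107 in CONT and 11.3, 11.2, 10.6, 11.1 and 8.89 in REST. In MONT the lowest, median and highest ratios were 6.46, 8.31 and 9.67 in CONT and 7.23, 7.54 and 8.75 in REST. Within each period every MONT library lay below every HOLS library, and the closest pair was in REST, HOLS cow 2182 at 8.89 and MONT cow 1640 at 8.75. How many other pairs of miRNAs separate the breeds in this way was not computed.

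The means of both libraries of a cow ran from 9.53 to 11.6 in HOLS and from 7.11 to 8.49 in MONT. The difference, MONT minus HOLS, was -0.45 on the log2 scale, and a two-sided exact permutation test over 5 and 6 cows gave p = 0.00216, the smallest that its 462 splits can give. It was -0.45 in CONT (exact p = 0.00433) and -0.46 in REST (exact p = 0.00216), and leaving out any one cow kept it between -0.50 and -0.42. The ratio does not depend on how libraries are scaled. It was chosen for testing after these values were seen, as 1 of 3 ratios, and the p-values are not adjusted. The study describes lower quality in its MONT libraries, with more short reads and adapters, so library quality cannot be told apart from breed. The mature sequences of miR-103 and miR-107 differ near the 3′ end, how the authors' counting treated reads that fit both is not given in the sources used here, and the part of that in the ratio was not tested. Between the periods the ratio changed by -0.06 ± 0.10 (SD, n = 5) on the log2 scale in HOLS and by -0.07 ± 0.23 (n = 6) in MONT, with exact paired permutation p-values of 0.188 and 0.5.

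For the other pair of close relatives, miR-33b and miR-33a, the ratio did not separate the breeds. Cow means ran from 4.40 to 7.42 in HOLS and from 3.82 to 9.53 in MONT, with an exact permutation p of 0.208 for the difference.

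**Figure D4:**
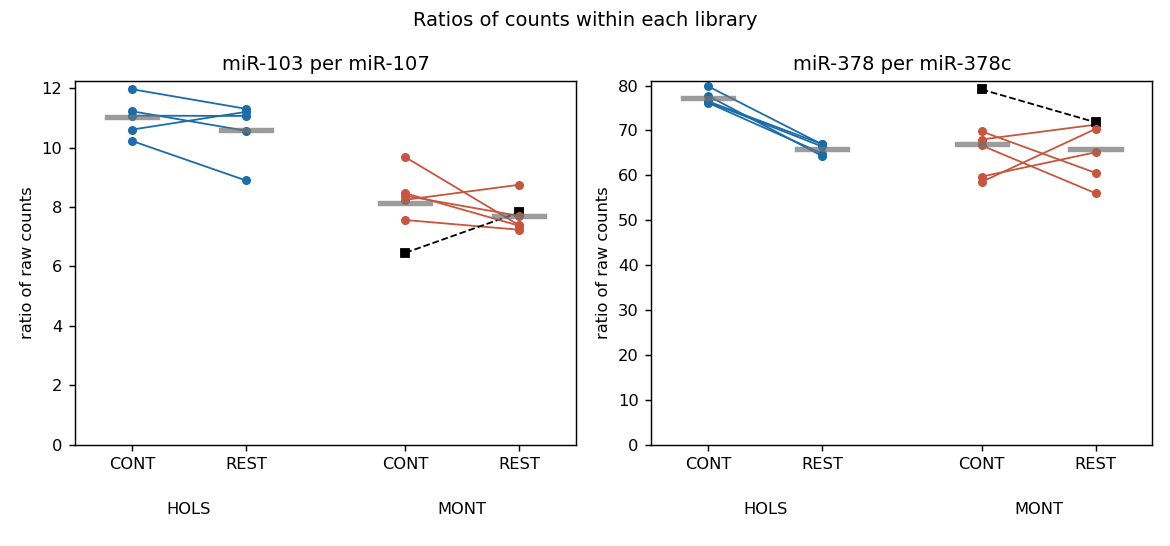
Ratio of raw counts of miR-103 to miR-107 (left) and of miR-378 to miR-378c (right) in each library (y axes, from 0), with lines joining both libraries of a cow, grey bars for group means and MONT cow 9615 dashed in black. On the left all MONT points lie below the HOLS points of the same period, and on the right the HOLS values drop from a mean of 77.3 to 65.9 while the MONT values scatter.

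Of the other miR-378 family members, miR-378c had 33 to 145 counts in a library, miR-378b 3 to 17 and miR-378d 0 to 3. miR-378b and miR-378d did not pass the filter within a breed. miR-378c, which unlike miR-378 has a single gene here, had an edgeR log2 fold change of 0.03 with an SE of 0.18 in HOLS (adjusted p = 0.969) and -0.32 with an SE of 0.28 in MONT (adjusted p = 0.551). It was lower in REST in 6 of the 11 cows, compared with 8 for miR-378.

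The ratio of miR-378 to miR-378c in HOLS cows 1165, 8200, 9195, 1155 and 2182 was 76.1, 76.4, 76.5, 79.8 and 77.7 in CONT and 64.9, 66.4, 66.9, 66.9 and 64.3 in REST. The periods did not overlap, and the ratio fell in each of the 5 cows, by 0.23 ± 0.03 (SD, n = 5) on the log2 scale. The exact permutation p was 0.00794 unpaired and 0.0625 paired, each the smallest that test can give. In MONT the lowest, median and highest ratios were 58.5, 67.3 and 79.1 in CONT and 56.0, 67.7 and 71.8 in REST, and 3 of the 6 cows were lower in REST. The MONT change was -0.02 ± 0.21 (SD, n = 6), with an exact paired permutation p of 0.781.

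The difference between the breeds in this change was 0.21 on the log2 scale with an exact permutation p of 0.0693, and the p was under 0.05 only without MONT cow 1613 (0.0317) or 1640 (0.0238). This ratio, too, was chosen after its values were seen. How many other pairs of miRNAs have ratios that separate the periods in HOLS without overlap was not computed. Among single miRNAs, 21 of the 374 tested in HOLS (5.61%) had every REST library below every CONT library. The spread of the ratio among HOLS cows within a period, 1.98% of its mean in CONT and 1.85% in REST, was smaller than the counting error of miR-378c alone, which at these counts is between 8.30% and 13.0% for a library. In MONT the spread was 11.2% in CONT and 9.85% in REST, within the 8.61% to 17.4% of counting error there. How reads of the family were assigned is not given in the sources used here. If reads that fit both were divided between miR-378 and miR-378c by a fixed rule, the ratio and its p-values would not measure 2 separate miRNAs, and this was not tested.

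The 5 miRNAs moved together from library to library in MONT. Pearson's r of log2 normalized counts lay between 0.72 and 0.91 for all 10 pairs over the 12 MONT libraries. In the 10 HOLS libraries r was between 0.60 and 0.79 for the 6 pairs among miR-33b, miR-103, miR-107 and miR-378, and between -0.36 and 0.24 for the 4 pairs with miR-33a. These values describe libraries that share cows and a scaling, and carry no test.

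Outside the 5, the miRNAs most like each by the mean of its r in both breeds, among 348 tested in both, included the epithelial markers miR-200a and miR-200b. For miR-103 they were miR-148a (r = 0.87 in HOLS and 0.97 in MONT), miR-148d (0.87 and 0.97) and miR-200a (0.89 and 0.93). The log2 fold changes of miR-148a and miR-148d were also close, at -0.192 and -0.189 in HOLS and -0.590 and -0.586 in MONT. Whether both rest on the same reads was not tested. miR-148a is abundant in milk and known for effects on milk fat synthesis. For miR-107 they were miR-1839 (0.86 and 0.92), miR-200a (0.85 and 0.92) and miR-148d (0.71 and 0.89). For miR-33b they were miR-200b (0.81 and 0.84), miR-502a (0.87 and 0.76) and miR-340 (0.76 and 0.81). For miR-33a they were miR-11986b (0.86 and 0.78), miR-345-3p (0.84 and 0.77) and miR-30a-5p (0.72 and 0.82). For miR-378 they were miR-378c (0.88 and 0.96), miR-1839 (0.92 and 0.66) and miR-532 (0.78 and 0.79), and the counts of miR-378 and miR-378c may rest in part on the same reads.

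The sum of epithelial markers varied with these miRNAs in MONT. The summed normalized counts of the epithelial markers ran from 432156 to 542964 (CONT) and from 305122 to 667419 (REST) in HOLS, and from 221779 to 560876 and from 174159 to 405659 in MONT. The sum was lower in REST in the 5 MONT cows in which at least 4 of the miRNAs were lower, and higher, from 232242 to 405659, in cow 9615, in which all 5 were higher. In HOLS it was lower in 2 of the 5 cows and changed by -0.04 ± 0.33 (SD, n = 5) on the log2 scale. Over libraries, r with the epithelial sum was between 0.59 for miR-378 and 0.91 for miR-107 in MONT and between -0.66 for miR-378 and 0.68 for miR-33a in HOLS.

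The leukocyte markers (6 of 6 with a row, among them miR-142-5p and miR-150) had sums of 22895 to 34005 (CONT) and 21921 to 50989 (REST) in HOLS, and of 21911 to 51444 and 24884 to 49049 in MONT. Their sum was higher in REST in 4 of 5 HOLS and 5 of 6 MONT cows, and lower in cow 9615. Pearson's r with it lay between -0.75 and -0.46 for the 5 miRNAs in MONT. In HOLS it was 0.08 for miR-33a and between -0.85 and -0.63 for the other 4. All 6 markers of smooth muscle and stroma, such as miR-143 and miR-199a-3p, had fold changes above 0 in both breeds, with a median of 0.29 in HOLS and 0.67 in MONT. Their sums made up a median of 18.99% (CONT) and 23.3% (REST) of all counts in HOLS, and of 27.6% and 30.7% in MONT. This sum was higher in REST in all 5 HOLS cows and in 4 of the 6 MONT cows. Its change in MONT was 0.23 ± 0.62 (SD, n = 6) on the log2 scale. In bulk tissue fewer cells of a type and less RNA per cell cannot be told apart, and the part of the makeup of the biopsies in the levels of the 5 miRNAs was not tested.

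**Figure D5:**
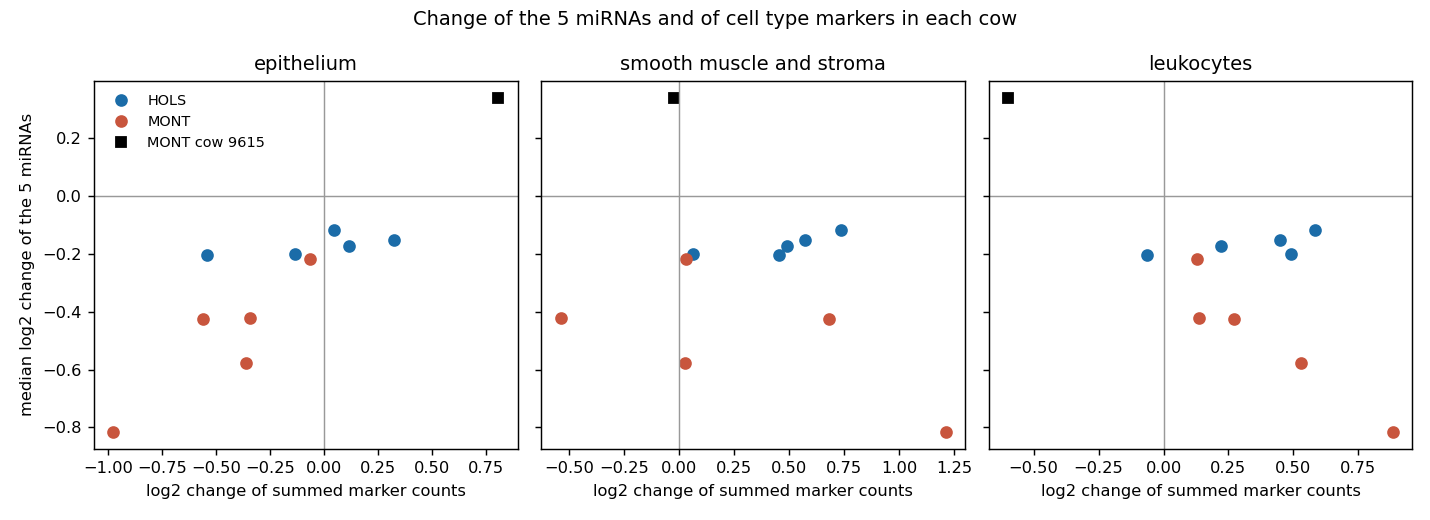
Median log2 change of the 5 miRNAs (REST minus CONT, y axis) against the log2 change of the summed counts of markers of epithelium, of smooth muscle and stroma, and of leukocytes (x axes) in each of 11 cows. MONT cow 9615 (black square) is the only cow above 0 on the y axis and has the highest epithelial and the lowest leukocyte change, at 0.80 and -0.60.

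Correlations of the 5 miRNAs with the other marker sums differed by list and by breed. Over the MONT libraries r was between 0.60 and 0.90 for the red blood cell sum, between 0.37 and 0.82 for the endothelial sum and between -0.48 and -0.14 for the smooth muscle and stroma sum. In HOLS the same sums gave r between -0.46 and 0.08, between -0.56 and 0.17 and between -0.66 and -0.30. For the striated muscle sum r lay between -0.24 and 0.20 in MONT and between -0.18 and 0.35 in HOLS. The red blood cell sum was higher in REST in cow 9615, by 0.75 on the log2 scale, and in 2 other MONT cows, and changed by -1.03, -0.92 and -0.99 in cows 1613, 1652 and 2614. Its mean change was 0.40 ± 0.35 (SD, n = 5) in HOLS and -0.29 ± 0.79 (SD, n = 6) in MONT. The part of these cells in the levels of the 5 miRNAs was not tested either.

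No marker of any cell type list was called within a breed by edgeR without the block. With the cow as a block, edgeR called markers of 5 lists in HOLS, where 16.3% of all miRNAs were called, and none in MONT. The epithelial miR-200b (-0.55, adjusted p = 0.00119), miR-200c (-0.43, 0.0257) and miR-429 (-0.28, 0.0438) fell in HOLS in that edgeR fit. Of the 9 epithelial markers tested there, 6 had fold changes below 0 and 3 above 0. In smooth muscle and stroma miR-143 (0.46, edgeR adjusted p = 0.0287) and miR-145 (0.26, 0.0491) rose, and in leukocytes miR-155 (0.54, 0.0110), miR-142-5p (0.33, 0.0476) and miR-146a (0.37, 0.0491) did. The endothelial miR-126-3p and the red blood cell marker miR-486 (0.42, edgeR adjusted p = 0.0476) also rose, while no striated muscle marker was called. The other 2 red blood cell markers had fold changes below 0 in that fit. Without the block the median log2 fold change of the 2 endothelial markers was 0.32 in HOLS and -0.08 in MONT and that of the 3 striated muscle markers tested -0.10 and -0.04. That of the 3 red blood cell markers was -0.09 and -0.75, opposite in sign to the change of their sum in HOLS.

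A list of 16 other miRNAs with known roles in lipid and energy metabolism gave no calls. Of its members 14 were tested in each breed and 0 passed the threshold in edgeR with or without the cow as a block, where 2.41% of all miRNAs did in HOLS without the block, 16.3% with it and 0% in MONT under either. The median log2 fold change was -0.01 in HOLS and -0.05 in MONT. miR-148a had the lowest unadjusted p of the list in HOLS, with a log2 fold change of -0.19 (SE 0.09, edgeR adjusted p = 0.212), and miR-370, which lies in an imprinted cluster, followed with -0.70 (SE 0.44, adjusted p = 0.342).

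Of 30 other miRNAs in introns of protein-coding genes, 29 had a row and 27 were tested in HOLS. None was called there without the block, and 21 of the 27 fold changes were above 0, with a median of 0.17 against 0.02 over all miRNAs, where all 5 metabolic host gene miRNAs were below 0. With the cow as a block 4 of the 27 rose in HOLS by edgeR, where 16.3% of all miRNAs were called. They were miR-204, in an intron of the ion channel gene TRPM3, at 0.61 (SE 0.13, adjusted p = 0.0139), miR-26b, in the phosphatase gene CTDSP1, at 0.51 (SE 0.12, 0.0141), miR-25, in the replication gene MCM7, at 0.32 (SE 0.08, 0.0280), and miR-126-3p, in EGFL7 and also a marker of endothelium, at 0.31 (SE 0.10, 0.0476). The next by p were miR-126-5p at 0.31 (SE 0.11, adjusted p in edgeR 0.0572) and miR-28 at 0.27 (SE 0.09, 0.0584). In MONT 26 were tested and none was called, with 16 above 0 and a median of 0.11 against -0.01 over all miRNAs. The list holds both arms of miR-126 and of miR-151, so its members are not all separate genes.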

How the data were processed

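Small RNA of 22 mammary gland biopsies, 1 library each, was analysed from the deposited tables. Another HOLS cow in the labels was not analysed here. The authors made the libraries with a TruSeq kit, trimmed and size-selected the reads, and quantified miRNAs with ncPRO-seq and miRDeep2. The deposited counts, in whole numbers, had not been normalized. The deposited tables also hold normalized counts, a signal that the authors obtained by dividing counts by DESeq2 size factors within a breed (DESeq2 1.18.1 by the submitters' notes). Size factors recalculated here gave the same values within a relative difference of 8.4e-10. Columns with group means, fold changes and p-values of the authors were not used.

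Counts were tested with edgeR 4.0.16 (R 4.3.3), by TMM scaling, filterByExpr (at least 10 counts), its quasi-likelihood test and Benjamini-Hochberg adjustment over all miRNAs tested, at a threshold of 0.05. REST was compared with CONT within each breed, over both breeds with breed as a covariate and as the interaction, and MONT with HOLS within each period. The study's methods name no block, so the unpaired fit is the one reported. The labels give both libraries of a cow the same number, since they come from the same animal: the correlation of their deviations is given in the report, and the cow as a block is an alternative. Each SE is the fold change divided by the square root of F. The other alternatives were DESeq2 1.42.0, its size factors, library size alone, no filter and each cow left out. Values per cow are log2 normalized counts with a pseudocount of 1, with size factors over all 22 libraries. The fits were tested on simulated data.

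The miRNAs, the lists and the naming rule were chosen with earlier results of these data known. The rule names the 5 miRNAs, further rows of their families, the 3 most alike to each, list members called in HOLS with or without the block and at most 4 more by p. Its part on shared seeds was not applied, as no miRNA sequences were used here. Of the names listed, miR-203, miR-206 and miR-208a matched no row.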

Additional observations from a re-analysis of the deposited data

Results flagged for a closer look

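One of 20 groups of libraries, taking each of the 5 miRNAs in each breed and period, had a value set apart from the rest. miR-107 in HOLS CONT was 2876.07 normalized counts in cow 2182, whereas the other 4 cows lay between 1979.8 and 2208. The gap to the nearest cow was 0.745 of the whole range, above Dixon's critical value of 0.71 for 5 libraries. Chance alone sets apart about 1 group in 20. Without this cow, the ratio of miR-103 to miR-107 still differed between the breeds, by -0.50 on the log2 scale with an exact permutation p of 0.00476, the smallest that 4 and 6 cows allow.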

How the results depend on the processing

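The fold changes of the 5 miRNAs between the periods lay below 0 under every alternative run in HOLS, in MONT and over both breeds. Of 450 alternative values in all 6 comparisons, 425 kept direction and side of the threshold, 19 passed it where the reported value did not, 0 lost it and 6 changed sign. The 19 were 5 in MONT, 13 over both breeds and 1 for miR-103 between the breeds in REST, with the values of DESeq2 with the replicate block over both breeds at -0.36 for miR-33a and -0.27 for miR-378. The 6 sign changes were between the breeds: miR-33a in CONT, -0.01 as reported, was 0.0086 under library size alone and between -0.093 and 0.078 with each cow left out, and miR-33b in REST, 0.22 as reported, was between -0.042, without MONT cow 1640, and 0.41. miR-378c in HOLS was -0.14 under library size alone and between -0.032 and 0.046 with each cow left out. The cause was not tested.

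Counts of called miRNAs moved more. In HOLS the 9 became 26 with DESeq2, 20 with library size alone, 5 without a filter, 61 with the replicate block, 68 with DESeq2 and the block, and 3 (without 1155 or 1165) to 14 (without 9195) with each cow left out. In MONT the 0 became 1 with DESeq2 and the block, and 0 to 46 with each cow left out, the 46 without 9615. With the block and without 9615, an alternative added after the data were seen, the counts were 140 in MONT, 23 for the interaction and 171 over both breeds. Over both breeds the 35 became 53 with DESeq2, 13 without a filter, 56 with the block, 109 with DESeq2 and the block, and 11 (without 1155) to 121 (without 9615) with each cow left out. Between the breeds the 2 in CONT became 20 with DESeq2, 1 with library size alone and 0 to 6 with each cow left out, and the 58 in REST became 89 with DESeq2 and 38 (without 1165) to 77 (without 9615). With all cows kept, the block changed calls of the 5 miRNAs only over both breeds, where it added miR-33a and miR-378. Without cow 9615 it raised edgeR calls among the 5 from 0 to 5 in MONT and from 3 to 5 over both breeds. The same step raised the share called among all miRNAs from 12.8% to 39.1% in MONT and from 31.2% to 44.1% over both breeds. The change of the ratio of miR-378 to miR-378c in MONT, -0.02 as reported, was between -0.080 and 0.023 with each cow left out, and its difference between the breeds between 0.15 and 0.25.

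With 5 or 6 cows a group, the SE of the changes in MONT lay between 0.16 for miR-107 and 0.41 for miR-33b. Counts of miR-33a, at 77 to 249 per library, and of miR-378c carry counting error beside the spread between cows.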
